A study of Mus musculus and Acomys cahirinus with 16 samples.

Results

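Carbonic anhydrase genes were followed in 2 rodents, the mouse (Mus musculus) and the spiny mouse (Acomys cahirinus), in skin with and without a carcinogen treatment. The 10 genes described are Car2, Car3, Car4, Car5b, Car6, Car8, Car9, Car12, Car13 and Car14, taken by symbol from both count tables, out of 16 carbonic anhydrase symbols present in both. They were chosen by symbol with their fold changes in these samples known, so levels, fold changes and species differences are given as a description and without a p-value. Polyadenylated RNA was sequenced from 16 samples in 4 groups of 4: untreated mouse skin, mouse skin treated with DMBA/TPA, untreated spiny mouse skin and spiny mouse skin treated with DMBA/TPA. DMBA damages DNA and serves as the tumour initiator, and TPA, a phorbol ester, as the promoter that makes initiated cells grow out. Strain, age, dose, duration and whether a sample came from a single animal are not given in the sources used here, so the spread between samples may be biological or technical.

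Carbonic anhydrases catalyse the exchange of carbon dioxide and water for bicarbonate and a proton, with a zinc ion held by histidines at the active site. The isoforms differ mainly in where they work. Car2, Car3 and Car13 are cytosolic, Car5b is mitochondrial, Car6 is secreted, and Car4, Car9, Car12 and Car14 face the outside of the cell on the plasma membrane. Car2 is among the fastest enzymes of the family and Car3 is a slow enzyme that is abundant in muscle and fat. Car8 is a carbonic anhydrase-related protein without the enzyme activity, known for binding the inositol trisphosphate receptor.

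The zinc site of the enzyme is shown for 9 of the genes, so that their sequences can be compared in the mouse reference. The coding sequence around the codons that align with the first pair of zinc-binding histidines of Car2 is shown 5′ to 3′ on the coding strand, from GRCm39 with the GENCODE M39 gene models. Capitals mark those 2 aligned codons.
Car2: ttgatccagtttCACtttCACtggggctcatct
Car3: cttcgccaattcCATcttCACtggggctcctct
Car13: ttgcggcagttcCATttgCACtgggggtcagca
Car5b: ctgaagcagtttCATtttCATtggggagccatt
Car6: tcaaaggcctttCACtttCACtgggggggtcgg
Car4: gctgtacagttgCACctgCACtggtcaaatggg
Car9: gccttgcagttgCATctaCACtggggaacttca
Car12: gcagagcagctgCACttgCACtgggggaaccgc
Car14: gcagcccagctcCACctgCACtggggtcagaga
The window lies in exon 3 or exon 4 of each gene, at chr3:14960117-14960149 for Car2 (plus strand). CAC or CAT, the histidine codons, stood at both capital positions in all 9. The codon aligned with the third zinc-binding histidine, which lies outside the window, was also CAC or CAT in all 9 genes. A genome of the spiny mouse was not used here, so the windows are those of the mouse only.

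Each mouse library held between 19608787 and 30198281 counts and each spiny mouse library between 21143918 and 30561256, so that 3 counts corresponded to between 0.102 and 0.158 CPM (counts relative to the TMM-scaled library total). Summed basal keratinocyte markers lay between 6910 and 9947 CPM in untreated mouse skin and between 8162 and 9855 CPM in untreated spiny mouse skin, while gut epithelium markers summed to at most 0.57 CPM in any sample. Untreated mouse replicate 2 stood apart. Its 10 anagen hair follicle markers summed to 2606 CPM against 18.2 to 47.6 CPM in the other 3 samples, its adipocyte markers to 626 CPM against 1609 to 2466 CPM, and its suprabasal keratinocyte markers to 2992 CPM against 6257 to 7788 CPM. The list of 4 liver markers summed to 580 CPM in untreated mouse replicate 1 and to at most 5.79 CPM in the other 3. Mouse fold changes of the 10 genes are therefore also given without untreated replicate 2.

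All 10 genes passed the filter on low counts in both species. In mouse skin 7 of the 10 were called (edgeR quasi-likelihood adjusted p under 0.05), where 61.2% of 19740 tested genes were called. Car2, Car6 and Car12 rose, as 25.9% of all tested genes did, and Car3, Car5b, Car8 and Car14 fell, as 35.3% did. Car4, Car9 and Car13 were not called. In spiny mouse skin 8 of the 10 were called against 55.1% of 14833 tested genes. There Car4, Car6, Car8, Car9 and Car12 rose (28.2% of all tested genes rose), Car2, Car3 and Car14 fell (26.9% fell), and Car5b and Car13 were not called. The genes were chosen on these contrasts, so nothing is read from their shares. The ranges of the treated and the untreated group were separate for 5 of the genes in mouse, where 58.6% of all tested genes had separate ranges, and for 6 in spiny mouse, where 50.9% had. The share of higher genes among all mouse calls was 42.4% under TMM, 48.4% under DESeq2 size factors, 30.5% under upper-quartile scaling and 28.6% when only library size was used. In these bulk samples, fewer cells of a type and less RNA per cell cannot be told apart.

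**Figure D1:**
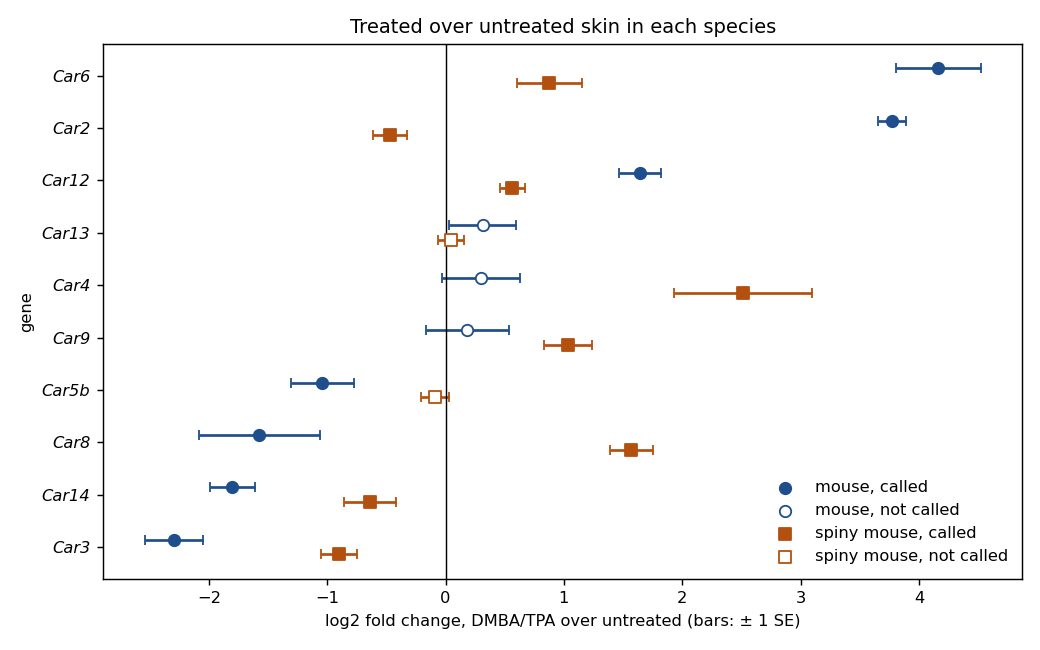
Log2 fold change of treated over untreated skin (x axis, bars ± 1 SE from edgeR) for each of the 10 genes (y axis), with mouse as circles and spiny mouse as squares and uncalled genes as open symbols. Car2 lies at 3.77 in mouse and at -0.47 in spiny mouse, and Car8 at -1.57 and 1.57.

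Car2, the widely expressed fast cytosolic enzyme (ENSMUSG00000027562, GRCm39 chr3:14951333-14965830, plus strand), changed in opposite directions in the 2 species. Its level was 5.17, 3.86, 4.73 and 4.19 CPM in untreated mouse replicates 1 to 4 and 65.4, 60.8, 57.5 and 62.0 CPM in treated ones. All treated mouse samples lay above all untreated ones, with little spread within either group. The change was 3.77 on the log2 scale (SE 0.12), a 13.7-fold rise, and 3.80 without untreated replicate 2. Spiny mouse samples, counted in a separate table, held 236, 196, 179 and 163 CPM untreated and 141, 114, 171 and 133 CPM treated. These groups overlapped, and the log2 fold change was -0.47 (SE 0.14). That fall was no longer called without treated replicate 2 (-0.38) or without treated replicate 4 (-0.43).

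Car3 (ENSMUSG00000027559, GRCm39 chr3:14928572-14937583, plus strand), the slow cytosolic enzyme of muscle and fat, was the most abundant carbonic anhydrase in every group and fell in both species. Untreated mouse samples held 1646, 993, 1701 and 1887 CPM and treated ones 287, 379, 357 and 246 CPM. Untreated spiny mouse samples held 3023, 3045, 2577 and 3152 CPM and treated ones 1159, 1573, 1847 and 1750 CPM. In neither species did the groups overlap. Car3 had a log2 fold change of -2.30 (SE 0.24) in mouse and -0.90 (SE 0.15) in spiny mouse, a 4.91-fold and a 1.86-fold fall. Without untreated replicate 2 the mouse value was -2.37 (SE 0.15). Exons of mouse Car3 overlap those of Gm56774 on the opposite strand by 94 bases, and fragments that fell on both genes were not counted.

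Markers of muscle and fat moved with Car3 between the untreated and the treated groups. Within untreated mouse skin, replicate 2 had the lowest Car3 (993 CPM) but the highest muscle sum (15500 CPM). Its adipocyte sum (626 CPM) was the lowest of that group. The 10 skeletal muscle markers summed to between 11370 and 15500 CPM in untreated and between 2512 and 3380 CPM in treated mouse skin, and to between 11570 and 14500 CPM and between 3751 and 7732 CPM in spiny mouse skin. All 10 tested in mouse and all 9 tested in spiny mouse fell. The 10 adipocyte markers summed to between 626 and 2466 CPM in untreated and between 492 and 914 CPM in treated mouse skin. In spiny mouse skin they summed to between 2268 and 2439 CPM untreated and between 1223 and 1651 CPM treated. In each species 6 of 10 fell. Of all tested genes, 35.3% fell in mouse and 26.9% in spiny mouse. The log2 ratio of Car3 to the muscle sum was -3.07 ± 0.61 in untreated and -3.22 ± 0.43 in treated mouse skin, and -2.13 ± 0.08 and -1.85 ± 0.33 in spiny mouse skin (SD, n = 4 each). Against the adipocyte sum it was 0.10 ± 0.43 and -1.04 ± 0.15 in mouse, and 0.31 ± 0.09 and 0.09 ± 0.22 in spiny mouse. The part of either tissue in the fall of Car3 was not tested.

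**Figure D2:**
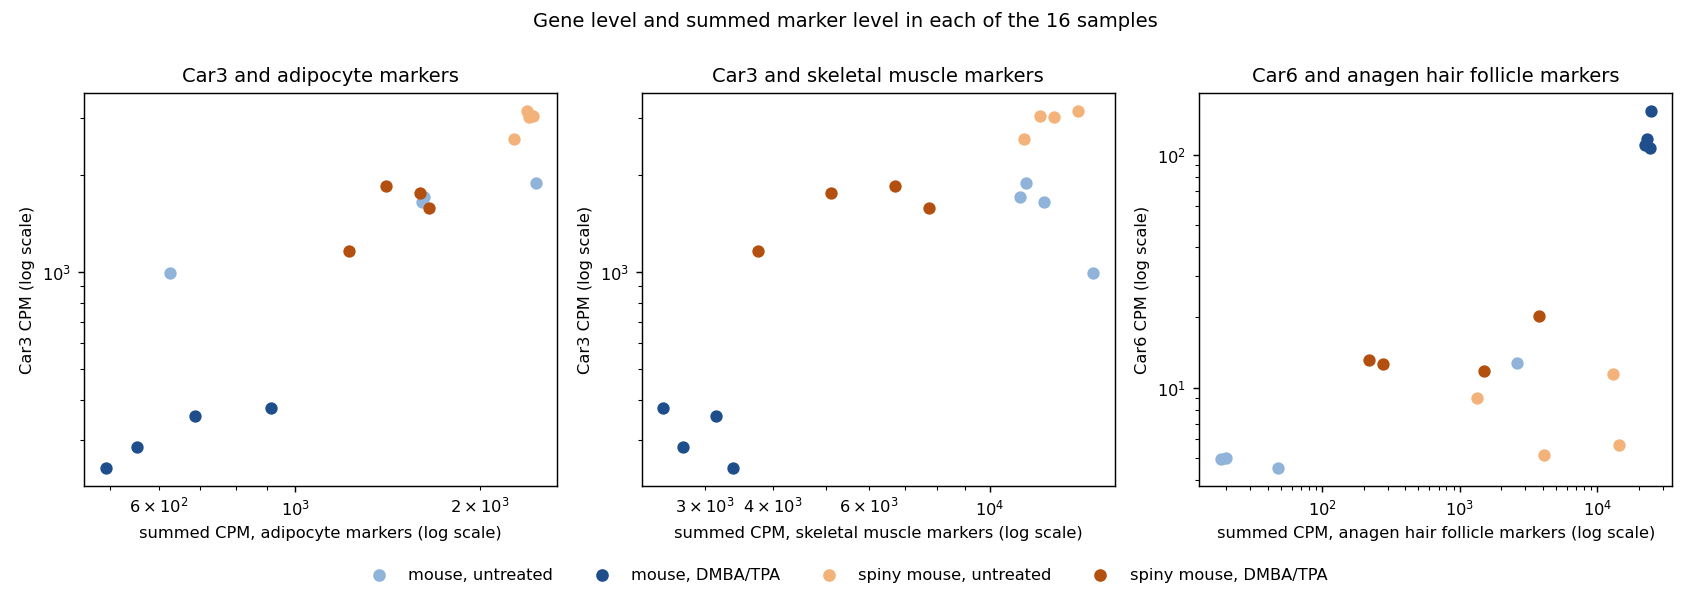
Level of Car3 (left and centre) or Car6 (right) against the summed level of a marker list in each of the 16 samples, all in TMM-scaled CPM on log axes and coloured by group. Treated mouse samples hold the lowest Car3, at 246 to 379 CPM, with muscle sums of 2512 to 3380 CPM, and the highest Car6, at 106 to 154 CPM, with hair follicle sums of 22390 to 24560 CPM.

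Car13 (ENSMUSG00000027555, GRCm39 chr3:14706787-14728062, plus strand), the third cytosolic enzyme, was not called in either species. Untreated mouse samples held 130, 44.3, 113 and 113 CPM and treated ones 139, 133, 120 and 105 CPM, with only replicate 2 of the untreated samples low. Its log2 fold change was 0.32 (SE 0.28), and 0.16 (SE 0.11) without that sample. Spiny mouse samples held 55.8, 44.9, 67.4 and 57.0 CPM untreated and 58.3, 60.5, 59.0 and 55.0 CPM treated, a log2 fold change of 0.05 (SE 0.11). Car13, Car3 and Car2 lie on the same stretch of chromosome 3 of the mouse, from 14706787 to 14965830, all on the plus strand. They lie together in the spiny mouse as well, on the minus strand of scaffold_16 of the AcoCah2 assembly, with Car2 at 86400163 to 86417280, Car3 at 86432419 to 86442035 and Car13 at 86556206 to 86582522. Among these genes treated mouse skin had Car2 higher, Car3 lower and no call for Car13.

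Car8 (ENSMUSG00000041261, GRCm39 chr4:8143362-8239041, minus strand), the carbonic anhydrase-related protein, rose in spiny mouse skin and fell in mouse skin. Spiny mouse samples held 2.72, 4.32, 3.61 and 4.43 CPM untreated and 10.28, 10.97, 9.515 and 13.89 CPM treated, with no overlap. Car8 thus had a log2 fold change of 1.57 (SE 0.18) in spiny mouse, a 2.97-fold rise. Mouse samples held 5.05, 0.789, 3.11 and 3.10 CPM untreated and 0.683, 1.10, 1.53 and 0.705 CPM treated. Only untreated replicate 2 reached into the treated range. The mouse log2 fold change was -1.57 (SE 0.51), and -1.79 (SE 0.30) without that sample. The mouse call was lost without untreated replicate 1 (-1.20), treated replicate 1 (-1.41), treated replicate 2 (-1.52) or treated replicate 4 (-1.41). The mouse value lay between -1.20 and -1.84 with any single sample left out, and the spiny mouse call was kept each time.

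Car5b (ENSMUSG00000031373, GRCm39 chrX:162759818-162810993, minus strand), the mitochondrial isoform that supplies bicarbonate to biosynthesis, was called lower in mouse skin and was not called in spiny mouse skin. Mouse samples held 29.1, 11.9, 25.3 and 31.3 CPM untreated and 11.8, 13.4, 11.9 and 10.4 CPM treated. Untreated replicate 2 lay among the treated samples and the other 3 above all of them. Its mouse log2 fold change was -1.04 (SE 0.26), and -1.18 (SE 0.11) without replicate 2. Spiny mouse samples held 37.1, 31.5, 44.9 and 43.1 CPM untreated and 31.7, 38.1, 37.5 and 39.9 CPM treated, a log2 fold change of -0.09 (SE 0.12). Summed sebaceous gland markers were 1131, 531, 1158 and 998 CPM in untreated mouse replicates 1 to 4 and 714 to 960 CPM in treated ones, lowest like Car5b in replicate 2 among the untreated samples. Of the 8 listed, 2 rose and 2 fell in mouse, where 25.9% and 35.3% of all tested genes did. Of 7 tested in spiny mouse none rose and 1 fell, where 28.2% and 26.9% of all did. The part of sebaceous tissue in this result was not tested.

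Car6 (ENSMUSG00000028972, GRCm39 chr4:150271472-150285789, minus strand), the only secreted isoform and known from saliva, had the largest mouse fold change of the 10. Mouse samples held 5.01, 12.8, 4.51 and 4.92 CPM untreated and 110, 106, 117 and 154 CPM treated. The groups did not overlap, although untreated replicate 2 was well above the other 3. For Car6 in mouse the log2 fold change was 4.16 (SE 0.36), a 17.9-fold rise, and 4.75 (SE 0.16) without that sample. In spiny mouse skin the values were 11.5, 5.67, 9.02 and 5.17 CPM untreated and 12.7, 13.1, 20.2 and 11.7 CPM treated, a log2 fold change of 0.88 (SE 0.27). The spiny mouse call was lost without untreated replicate 2 (0.75), untreated replicate 4 (0.73) or treated replicate 3 (0.67).

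The hair cycle markers moved with Car6 in mouse. The 10 anagen hair follicle markers summed to between 18.2 and 2606 CPM in untreated and between 22390 and 24560 CPM in treated mouse skin, with 9 of 10 higher and none lower. In spiny mouse skin they summed to between 1335 and 14270 CPM untreated and between 218 and 3797 CPM treated, with 4 of 10 lower and none higher. Untreated mouse replicate 2, with the highest sum of that group, also had its highest Car6, Car9, Car12 and Car14 CPM, although Car14 fell with treatment. Car2, which rose with treatment, was lowest in that sample by CPM. By length-scaled level (TPM) its Car2 was instead the highest of the group, at 6.67 TPM against 5.39 to 6.42 TPM. In spiny mouse skin Car6 was higher in the treated group, whose mean hair follicle sum was 1450 CPM against 8183 CPM untreated. Within that treated group, replicate 3 had both the highest Car6 (20.2 CPM) and the highest hair follicle sum (3797 CPM). Within the untreated spiny mouse group, Car6 was highest in replicate 1 (11.5 CPM) and the sum in replicate 2 (14270 CPM), where Car6 was 5.67 CPM. Hyperplastic epidermis markers were higher after treatment in both species, in 6 of 6 tested in mouse and 5 of 5 in spiny mouse. Of all tested genes, 25.9% rose and 35.3% fell in mouse, and 28.2% rose and 26.9% fell in spiny mouse. The part of hair follicle or thickened epidermis in the Car6 values was not tested.

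Car12 (ENSMUSG00000032373, GRCm39 chr9:66620968-66674127, plus strand), a membrane enzyme with its active site outside the cell, rose in both species. Mouse samples held 54.9, 72.4, 40.6 and 45.5 CPM untreated and 186, 164, 161 and 156 CPM treated. Spiny mouse samples held 54.2, 40.1, 47.7 and 39.5 CPM untreated and 68.8, 66.9, 70.3 and 62.7 CPM treated. Neither species had overlapping groups. The log2 fold change was 1.64 (SE 0.18) in mouse, 1.92 (SE 0.12) without untreated replicate 2, and 0.57 (SE 0.11) in spiny mouse.

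Car9 (ENSMUSG00000028463, GRCm39 chr4:43506966-43513729, plus strand), the membrane isoform best known as a target of hypoxia-inducible factor, rose in spiny mouse skin. Its level there was 4.53, 6.90, 5.04 and 3.70 CPM untreated and 10.7, 8.79, 9.11 and 12.8 CPM treated, without overlap, and the log2 fold change was 1.03 (SE 0.20). Mouse samples held 1.71, 4.25, 1.502 and 1.69 CPM untreated and 2.21, 2.68, 2.36 and 3.12 CPM treated. Untreated replicate 2 was higher than every treated mouse sample and the other 3 were lower than all of them. The mouse log2 fold change was 0.19 (SE 0.35) and not called, but 0.76 (SE 0.21) and called without that sample. It was -0.05 under upper-quartile scaling and -0.08 when only library size was used. Exons of Car9 overlap Gm12454 by 660 bases in mouse and Arhgef39 and Tpm2 by 149 bases in spiny mouse, each on the opposite strand, so its counts leave out fragments shared with them.

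Car4 (ENSMUSG00000000805, GRCm39 chr11:84848612-84856870, plus strand), an isoform held on the outer membrane by a lipid anchor and found on capillary endothelium, rose in spiny mouse skin. Spiny mouse samples held 0.749, 1.51, 0.817 and 1.05 CPM untreated and 2.87, 3.18, 3.26 and 14.3 CPM treated. The groups did not overlap, and treated replicate 4 lay far above the other treated samples. The log2 fold change was 2.51 (SE 0.58), and 1.61 (SE 0.26) and still called without that sample. Mouse samples held 0.692, 1.05, 1.32 and 1.59 CPM untreated and 1.26, 0.967, 1.60 and 1.89 CPM treated, a log2 fold change of 0.30 (SE 0.33), or 0.36 (SE 0.33) without untreated replicate 2. The capillary endothelium markers were Gpihbp1, Cd36 and Fabp4, and Fabp4 was also in the adipocyte list. In spiny mouse skin they summed to 604 to 709 CPM untreated and 413 to 619 CPM treated. The endothelium markers Pecam1, Cdh5, Kdr and Cldn5 summed there to 189.5 to 224.9 CPM untreated and 166.4 to 207.5 CPM treated. Macrophage markers summed to 1134 CPM in treated replicate 4 against 757 to 871 CPM in the other 3 treated samples. Endothelium (207.5 against 166.4 to 178.3 CPM) and fibroblast markers (3603 against 2538 to 2940 CPM) were also highest there among treated samples. Capillary endothelium markers (525.8 CPM) were not. In spiny mouse 4 of 6 macrophage markers rose and none fell. Of the endothelium markers 2 of 4 fell, of the capillary ones 2 of 3, and none rose. Of all tested genes, 28.2% rose and 26.9% fell. The part of these cell types in the Car4 values was not tested.

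Car14 (ENSMUSG00000038526, GRCm39 chr3:95805080-95812003, minus strand), a membrane isoform known from muscle, liver and the eye, fell in both species. Mouse samples held 6.68, 7.50, 6.12 and 6.61 CPM untreated and 1.89, 1.49, 1.86 and 2.45 CPM treated, without overlap. The log2 fold change was -1.80 (SE 0.19), and -1.65 (SE 0.18) without untreated replicate 2. Spiny mouse samples held 2.76, 3.93, 2.72 and 3.70 CPM untreated and 1.64, 2.82, 2.20 and 1.69 CPM treated, which overlapped. The log2 fold change of -0.64 (SE 0.22) was no longer called when untreated replicate 2 (-0.54), untreated replicate 4 (-0.58), treated replicate 1 (-0.54), treated replicate 3 (-0.66) or treated replicate 4 (-0.54) was left out. Car14 exons overlap Aph1a on the opposite strand, by 445 bases in mouse and 460 bases in spiny mouse. The muscle marker sums given beside Car3 moved in the same direction as Car14, and their part in it was not tested.

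**Figure D3:**
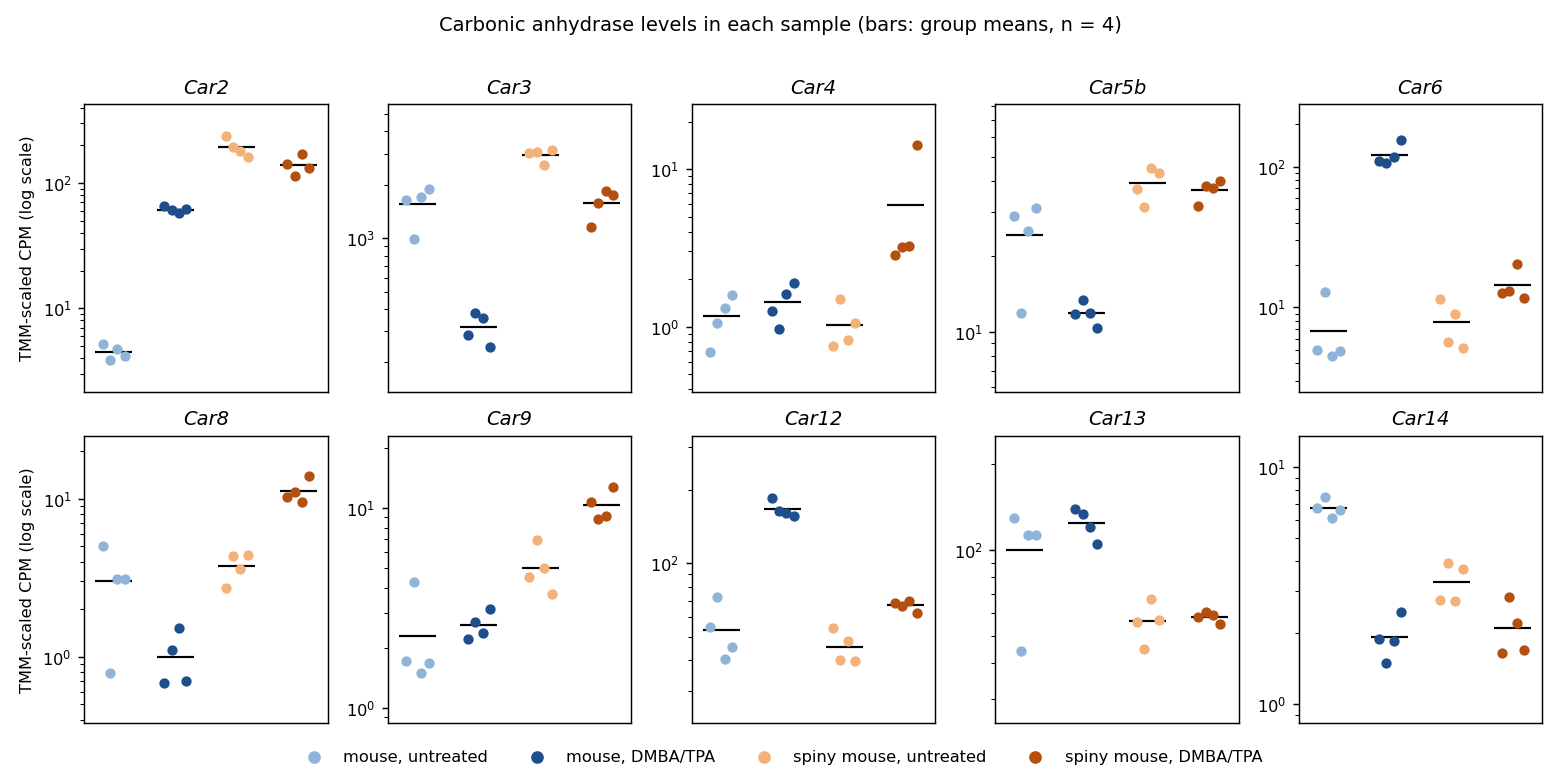
TMM-scaled CPM of each gene (y axes, log scale, 1 panel per gene) in the 4 samples of each group, with bars at the group means. Untreated mouse replicate 2, the second point from the left in each panel, is the lowest untreated mouse sample for Car2, Car3, Car5b, Car8 and Car13 and the highest for Car6, Car9, Car12 and Car14.

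Levels of different genes were compared per length, as TPM computed from the counts and the deposited gene lengths. These lengths differ between the 2 annotations, at 3853 bases in mouse and 1097 in spiny mouse for Car8, and 2865 and 1516 for Car3. TPM levels are therefore compared within a species only. Full lengths were used also where exons overlap another gene. In untreated mouse skin the order was Car3 (1762 TPM), Car13 (138), Car12 (24.1), Car6 (13.4), Car5b (12.3), Car14 (8.92), Car2 (6.11), Car9 (3.56), Car8 (2.44) and Car4 (1.97 TPM). Neighbours overlapped over the 4 samples from Car12 through Car14 and from Car2 through Car4. Without replicate 2, left out after seeing the data, Car5b (13.7 TPM) stood before Car6 (8.11) and Car8 (2.97) before Car9 (2.17 TPM). In treated mouse skin the order was Car3 (282 TPM), Car6 (171), Car13 (138), Car2 (64.9), Car12 (56.1), Car5b (4.77), Car9 (2.88), Car14 (1.94), Car4 (1.86) and Car8 (0.658 TPM). The first 5 of these were separated from Car5b by a gap of 11.8-fold, while Car6 and Car13, Car2 and Car12, and Car9, Car14 and Car4 overlapped with their neighbours.

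The spiny mouse order moved less. Untreated samples had Car3 at 5047 TPM, Car2 at 263, Car13 at 71.5, Car5b at 37.1, Car12 at 20.4, Car6 at 15.2, Car8 at 8.98, Car9 at 6.50, Car14 at 3.54 and Car4 at 2.02 TPM. Treated samples had Car3 at 2603 TPM, Car2 at 184, Car13 at 70.6, Car5b at 33.3, Car12 at 29.1, Car6 at 27.1, Car8 at 25.4, Car9 at 12.95, Car4 at 11.2 and Car14 at 2.16 TPM. The first 8 places were the same before and after treatment, although Car5b, Car12, Car6 and Car8 overlapped as neighbours in treated skin. Car14 and Car4 exchanged the last places, and the Car4 mean rested on treated replicate 4.

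Car3 made up 89.2% ± 1.13 of the summed TPM of the 10 genes in untreated and 38.8% ± 5.66 in treated mouse skin, and 92.1% ± 1.09 and 86.6% ± 2.18 in spiny mouse skin (SD, n = 4 each). Without Car3 the other 9 genes summed to 211 ± 19.6 TPM in untreated and 443 ± 33.95 TPM in treated mouse skin, and to 428 ± 33.03 and 396 ± 39.7 TPM in spiny mouse skin. Car6 took 6.70% ± 5.98 of that remainder in untreated and 38.6% ± 5.71 in treated mouse skin. The untreated share was 15.7% in replicate 2 and 3.53%, 3.68% and 3.91% in the other 3, with a mean of 3.71% ± 0.19 (SD, n = 3) without replicate 2. Car2 went from 2.92% ± 0.45 to 14.7% ± 0.57 of it in mouse, while the spiny mouse share was 61.5% ± 4.73 untreated and 46.3% ± 4.22 treated. In mouse, Car13 went from 64.7% ± 14.5 to 31.3% ± 4.36 of the remainder while its own TPM mean was 138 in both groups. Without untreated replicate 2 these untreated values were 71.9% ± 1.10 of the remainder (SD, n = 3) and 157 TPM.

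**Figure D4:**
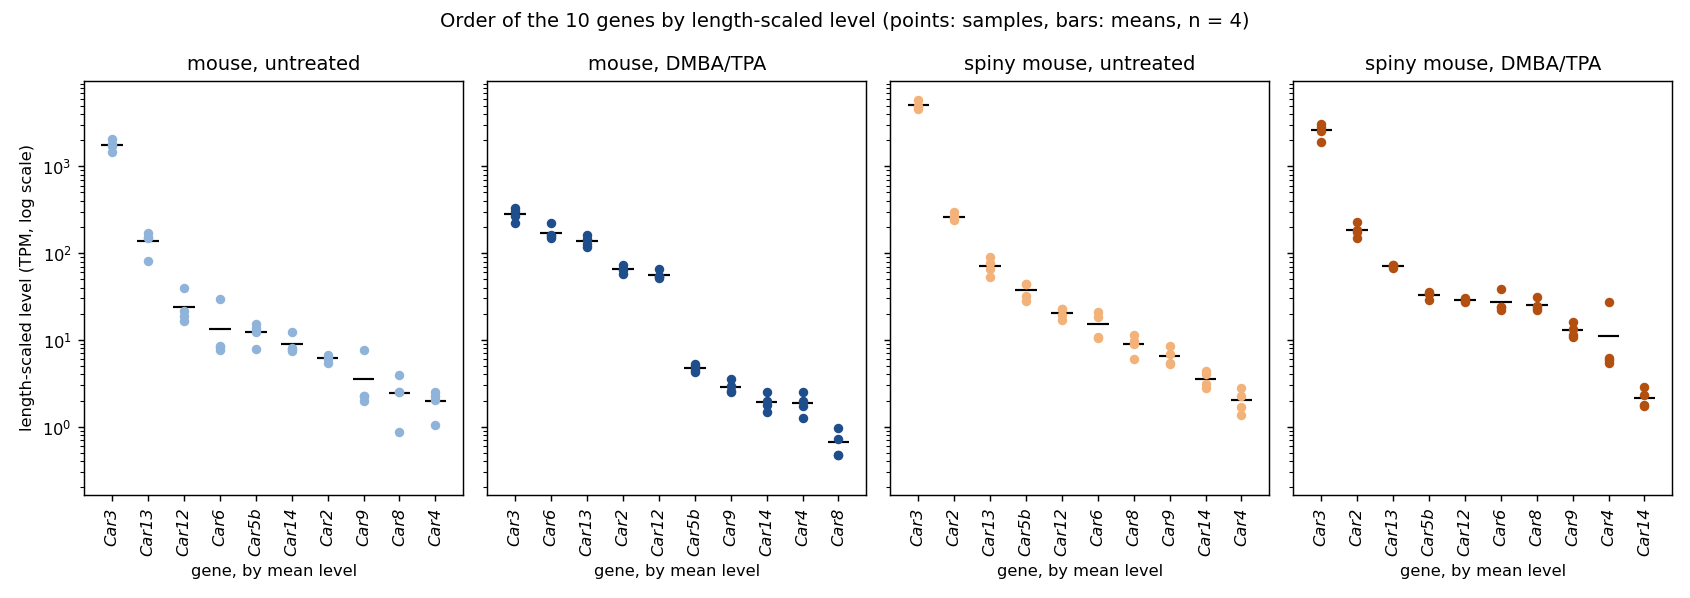
Length-scaled level (TPM, log y axis) of the 10 genes in each group, ordered from left to right by group mean, with points for the 4 samples and bars for the means. Car3 is first in all 4 panels, and Car2 is the seventh gene in untreated and the fourth in treated mouse skin, and the second in both spiny mouse groups.

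TPA acts on many genes through AP-1, a factor that binds the TPA response element TGAGTCA, and Car9 is a textbook target of hypoxia-inducible factor, which binds ACGTG or GCGTG. Mouse promoters from RefSeq (GRCm38.p6, 250 bases before to 50 after the gene start) matched 6 of the 10 genes by symbol: Car4, Car5b, Car6, Car9, Car12 and Car14. The 250 bases before the start are printed for Car9, the only one of the 6 with TGAGTCA, and for Car6 and Car12, which rose in both species. Capitals mark matches to any of these motifs on either strand.
Car9: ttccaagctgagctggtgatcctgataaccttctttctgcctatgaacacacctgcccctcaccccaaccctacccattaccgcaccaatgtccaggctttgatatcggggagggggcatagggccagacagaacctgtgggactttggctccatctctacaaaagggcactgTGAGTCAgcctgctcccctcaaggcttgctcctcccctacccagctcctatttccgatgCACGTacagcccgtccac
Car6: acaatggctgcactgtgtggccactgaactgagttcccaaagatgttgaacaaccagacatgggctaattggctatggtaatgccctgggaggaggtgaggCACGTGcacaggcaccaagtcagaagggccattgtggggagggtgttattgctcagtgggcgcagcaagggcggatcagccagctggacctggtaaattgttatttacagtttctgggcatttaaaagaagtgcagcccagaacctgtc
Car12: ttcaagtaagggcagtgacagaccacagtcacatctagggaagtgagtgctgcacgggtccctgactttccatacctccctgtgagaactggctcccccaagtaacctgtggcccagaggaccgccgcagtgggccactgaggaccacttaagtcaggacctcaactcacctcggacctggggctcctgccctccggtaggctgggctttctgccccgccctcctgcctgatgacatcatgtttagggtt
They lie at chr4:43506776-43507025 (plus strand), chr4:150201136-150201385 (minus strand) and chr9:66713436-66713685 (plus strand). Car9 held TGAGTCA beginning 77 bases before the start and ACGTG on the reverse strand beginning 18 bases before it. TGAGTCA stands in 5.19% of 32544 RefSeq mouse promoters of this length, and TGANTCA, which none of the other 5 held either, in 7.79%. Car6 held CACGTG, which reads ACGTG on both strands, beginning 149 bases before the start. ACGTG was also present in Car4 and Car14, against 19.7% of all promoters. GCGTG was present 5 times in Car5b and once, after the start, in Car6, against 32.6% of all promoters. Car12 held none of these motifs. A match describes these letters only and shows no binding.

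The difference between the species in the response to treatment was taken as the spiny mouse log2 fold change minus that of the mouse. It was called for 8 of the 10 genes, where 46.1% of 13656 shared symbols were called. It was positive (as for 21.4% of all shared symbols) for Car8 (3.14, SE 0.54), Car4 (2.20, SE 0.71), Car3 (1.40, SE 0.29), Car14 (1.16, SE 0.29) and Car5b (0.95, SE 0.30). It was negative (24.7% of all) for Car2 (-4.24, SE 0.19), Car6 (-3.29, SE 0.46) and Car12 (-1.08, SE 0.21). Thus Car2 and Car8 changed in opposite directions, Car3, Car6, Car12 and Car14 changed in the same direction but less in spiny mouse, and Car4 was called in spiny mouse only and Car5b in mouse only, with their differences called as well. Car9 (0.84, SE 0.41) and Car13 (-0.27, SE 0.32) were not called, and the Car9 difference was 0.27 (SE 0.29) without untreated mouse replicate 2. The Car4 difference was 1.30 (SE 0.42) and still called without spiny mouse treated replicate 4. The share of positive differences among all calls was 46.4% under TMM, 36.9% under DESeq2 size factors, 61.2% under upper-quartile scaling and 66.2% when only library size was used.

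Genes of the pathway lists, which were chosen with earlier results known, are named below mainly by call and size of change. Their adjusted p values restate that choice and are no separate support. Among the 6 other carbonic anhydrases, Car11 was tested in both species and Car7 in mouse, and Car1, Car5a, Car10 and Car15 passed the filter in neither. Car11, a further related protein without enzyme activity, fell from 3.70 ± 0.35 to 1.77 ± 0.34 CPM in mouse (log2 fold change -1.07, edgeR adjusted p 0.00188) and from 26.2 ± 1.33 to 7.76 ± 1.27 CPM in spiny mouse (-1.75, edgeR adjusted p 1.15e-05). Its difference of -0.67 was called (edgeR adjusted p 0.0124), though not under upper-quartile scaling (-0.50) or when only library size was used (-0.44). Car7, a cytosolic enzyme of neurons and muscle, fell from 0.922 ± 0.18 to 0.411 ± 0.10 CPM in mouse (log2 fold change -1.15, edgeR adjusted p 0.00838). The median log2 fold change of the 2 genes tested in mouse was -1.11, beside -0.15 over all tested genes.

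Bicarbonate transporters work with carbonic anhydrases by carrying their product across membranes. In mouse 6 of 12 tested rose and 5 fell (25.9% and 35.3% of all tested genes), with a median log2 fold change of 0.11 beside -0.15 over all genes. In spiny mouse 5 of 13 rose and 6 fell (28.2% and 26.9% of all), with a median of 0.12 beside -0.01. Slc26a9, an epithelial chloride and bicarbonate transporter, rose in both, from 6.92 ± 1.34 to 64.2 ± 9.87 CPM in mouse (log2 fold change 3.21, edgeR adjusted p 4.12e-06) and from 10.3 ± 2.64 to 62.6 ± 15.8 CPM in spiny mouse (2.60, edgeR adjusted p 3.75e-05). Slc4a1, the anion exchanger of red cells, rose by 4.14 in mouse (edgeR adjusted p 0.000803), from 1.27 ± 1.56 to 22.2 ± 1.89 CPM, and its value in spiny mouse was 0.12 (edgeR adjusted p 0.868). Its mouse value was 5.51 without untreated replicate 2, which held 3.55 CPM. Red cell markers, of which Slc4a1 is 1, summed to between 9.02 and 23.2 CPM in untreated and between 30.0 and 36.5 CPM in treated mouse skin. That sum includes the rise of Slc4a1 itself, so it is no separate measure of red cells. Of the 4 red cell markers tested in mouse 1, Slc4a1 itself, rose and 1 fell. The part of blood in the Slc4a1 values was not tested. Slc4a8 (-2.85) and Slc26a7 (-2.44) fell in mouse, and Slc4a4 (-1.72) and Slc4a3 (-1.21) fell in spiny mouse, all on the log2 scale. Their species differences were 3.36, 1.64, -1.12 and -0.71 in that order. The call for Slc4a3 was lost in 5 alternatives and kept in 18. Slc26a4 rose in spiny mouse by 2.21. The species difference was called for 6 of 11 (46.1% of all shared symbols), 2 positive and 4 negative, with a median of -0.38 beside -0.03.

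Proton exchangers and lactate carriers move the acid that carbonic anhydrases help to buffer. In mouse 4 of 13 rose and 6 fell, beside 25.9% and 35.3% of all tested genes, with a median log2 fold change of -0.38 against -0.15 over all genes. In spiny mouse 5 rose and 3 fell, beside 28.2% and 26.9% of all, with a median of -0.03 against -0.01. Slc9a2, a sodium and proton exchanger of epithelia, rose from 7.22 ± 2.88 to 26.5 ± 3.47 CPM in mouse (log2 fold change 1.88, edgeR adjusted p 0.000221) and fell from 4.36 ± 1.47 to 1.92 ± 0.69 CPM in spiny mouse (-1.17, edgeR adjusted p 0.0108), with a difference of -3.04 (edgeR adjusted p 3.27e-05). Slc16a3, which exports lactate from glycolytic cells, rose from 17.9 ± 2.76 to 43.7 ± 6.41 CPM in spiny mouse (1.29, edgeR adjusted p 9.25e-05) and stood at 39.1 ± 4.05 and 37.8 ± 2.38 CPM in mouse (-0.05, edgeR adjusted p 0.683), with a difference of 1.34 (edgeR adjusted p 2.38e-05). Slc16a7, another monocarboxylate carrier, rose by 1.47 in mouse, and Slc9a7 fell there by 1.49 on the log2 scale. Slc9a3, a proton exchanger of absorptive epithelia, fell in both, with log2 fold changes of -1.57 in mouse and -4.11 in spiny mouse, and Slc9a5 rose by 1.19 in spiny mouse. The difference was called for 8 of 13 (46.1% of all shared symbols), 5 positive and 3 negative, with a median of 0.34 against -0.03.

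Hypoxia-inducible targets were listed because Car9 and Car12 are induced by low oxygen in other settings. In mouse 4 of 18 rose and 6 fell, where 25.9% of all tested genes rose and 35.3% fell, and the median log2 fold change was -0.04 beside -0.15 over all genes. In spiny mouse 7 rose and 4 fell, where 28.2% and 26.9% of all tested genes did, and the median was 0.08 beside -0.01. Egln3, an oxygen-sensing prolyl hydroxylase, rose from 90.2 ± 12.3 to 238 ± 29.3 CPM in mouse (1.40, edgeR adjusted p 5.94e-05). The species difference of Egln3 was -0.99. Slc2a1, the glucose transporter GLUT1, rose from 150 ± 27.8 to 445 ± 64.5 CPM in spiny mouse (1.57, edgeR adjusted p 5.97e-05). The species difference of Slc2a1 was only 0.54, and that call was lost in 16 alternatives and kept in 7. Adm, which encodes the vasodilator adrenomedullin, rose by 1.15 in mouse and by 1.60 in spiny mouse. The spiny mouse call was lost in 3 alternatives, among them without untreated replicate 3 or 4, and kept in 12. The spiny mouse value was 0.89 without treated replicate 4. Bnip3 fell in mouse (-1.35), Pdk1 in spiny mouse (-0.52), and Pfkfb3 in mouse (-0.72) and spiny mouse (-0.51). The Pfkfb3 call in spiny mouse was lost without untreated replicate 4 or treated replicate 3. The difference was called for 5 of 18, 3 positive and 2 negative, where the median was 0.21 beside -0.03 and 46.1% of all shared symbols were called.

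**Figure D5:**
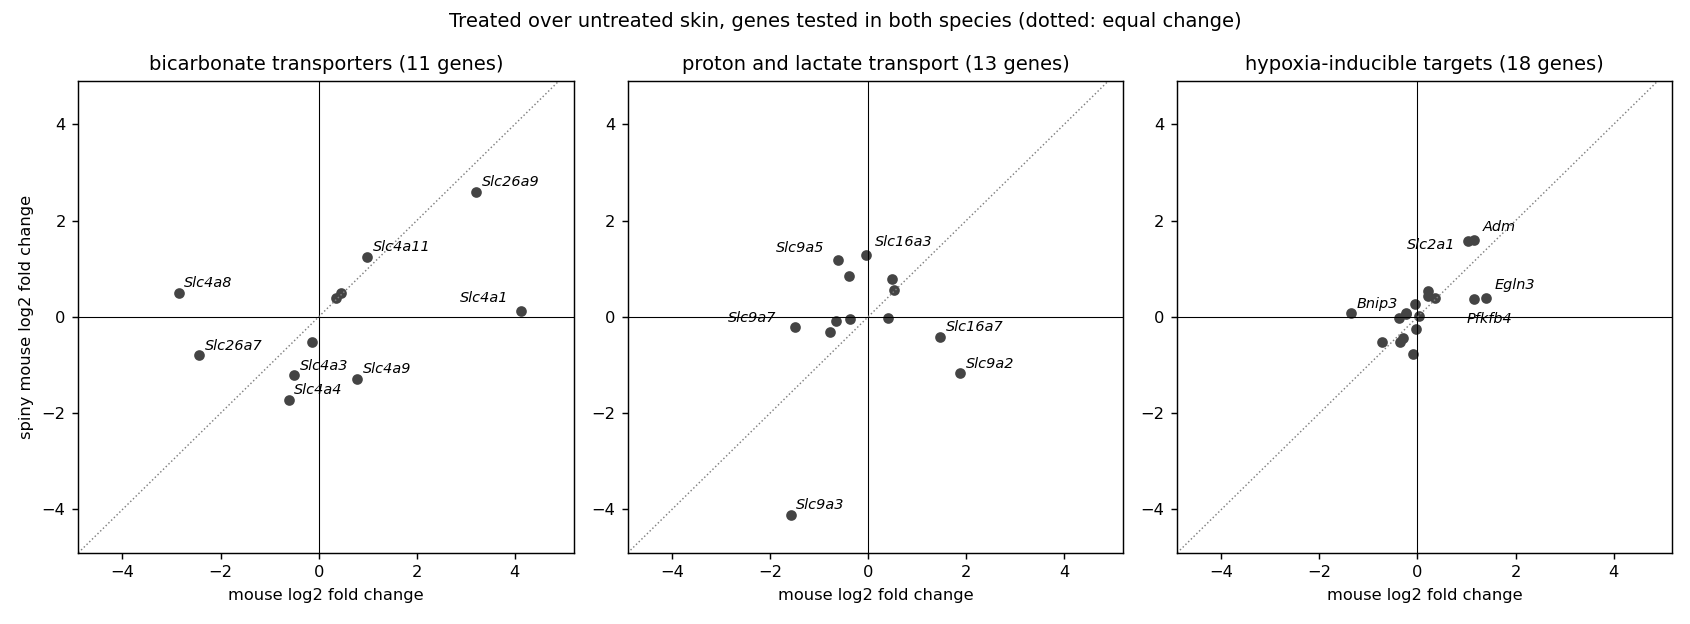
Log2 fold change of treated over untreated skin in mouse (x axis) and spiny mouse (y axis) for genes of 3 lists tested in both species, with names where either value exceeds 1 in size and a dotted line of equal change. Slc9a2 lies at 1.88 and -1.17 and Slc26a9 at 3.21 and 2.60.

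The genes whose pattern was most like each member were taken by Pearson correlation of log2 CPM over the 16 samples, centred within each species, among 12063 symbols. The samples share treatment and library, so these values describe likeness and are given without a p-value. Serinc2, Flrt3 and Rnf149 were most like Car2 (r = 0.99 each), and Gstt2, Smim14 and Abca5 most like Car3 (0.98 each). Icam1, Svep1 and Mmp9 were most like Car4 (0.90 to 0.91). For Car5b they were Awat2, Pla2g5 and Clmp (0.95 each). Lpar1, Agt and Ifngr1 were most like Car8 (0.93 to 0.95), and Arhgef1, Stk11ip and Ddx11 most like Car9 (0.90 to 0.91). Fbxo42 led both for Car6, before Dcbld1 and Arl15 (0.97 to 0.98), and for Car12, before Reps1 and Senp1 (0.98 each). Erlin1, Pdzd11 and Krtdap were most like Car13 (0.97 to 0.98), and Fhl1, Rbm24 and Tmem182 most like Car14 (0.98 each). Among the members themselves the closest pair was Car6 and Car12 (0.98), followed by Car2 and Car6 (0.91) and by Car3 and Car14 (0.89).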

How the data were processed

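Skin RNA of 16 samples was analysed from 2 deposited tables of raw fragment counts, 1 per species. The authors counted read pairs with featureCounts 2.0.3, per the file headers, against GRCm39 with Ensembl 108 annotation or the AcoCah2 assembly. Trim Galore and HISAT2 appear in the submitters' processing notes without versions. Per the file headers, the counting command sets no strand option, and fragments on several genes were not counted. The deposited tables also give the authors' gene length, the other value used here. The labels describe skin, and the series design text describes irradiated fibroblasts; the labels were followed. Columns were matched to the labels by species letter, replicate number and, for treated samples, the code DT of the library names. Columns of untreated samples have another code that the labels do not hold, and the column of untreated mouse replicate 2 has a further suffix of unstated meaning. Mouse identifiers were named from GENCODE M39 (56236 named, 744 without a symbol).

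After filterByExpr and TMM scaling, genes were tested with edgeR 4.0.16 (quasi-likelihood, R 4.3.3), with Benjamini-Hochberg adjustment over all genes and a call at an adjusted p under 0.05. The species difference is the interaction over 13656 symbols that each table holds once. SE is the log2 fold change divided by the square root of F. Levels are TMM-scaled CPM, or TPM from the deposited gene length. The fit was tested on simulated data. Members, lists and marker lists were chosen with earlier results of these data known. Named genes of the 4 pathway lists were the 2 largest called rises and falls per species at a mean log2 CPM of at least 1, and the like-patterned genes the 3 with the highest correlation. No within-group pair agreed within sampling noise (chi-square per degree of freedom 11.35 to 165.8 over 24 pairs), so none was counted as a repeat deposit of another. The count floors cover counting error only, since no molecular identifiers were used. Alternatives were the low-count filter, size factors, DESeq2 1.42.0, the replicate number as a term, and leaving out each sample. The coding window of Car8 is not reported here.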

Additional observations from a re-analysis of the deposited data

Results flagged for a closer look

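Of 40 sets of 4 samples (10 genes in 4 groups), 4 had a sample whose gap to its nearest neighbour exceeded Dixon's 95% limit, which chance does for about 1 in 20 sets. Car4 in treated spiny mouse replicate 4 was 14.3 CPM, with the other 3 samples between 2.87 and 3.26 CPM. Car6 in untreated mouse replicate 2 was 12.8 CPM against 4.51 to 5.01 CPM, and Car9 in the same sample was 4.25 CPM against 1.502 to 1.71 CPM. Car6 in treated spiny mouse replicate 3 was 20.2 CPM against 11.7 to 13.1 CPM.

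The log2 fold change differed between the species, by the interaction test, for 8 of the 10 genes, which were listed with their response known, where 46.1% of 13656 shared symbols were called. Spiny mouse minus mouse, the differences were -4.24 for Car2, 1.40 for Car3, 2.20 for Car4, 0.95 for Car5b, -3.29 for Car6, 3.14 for Car8, -1.08 for Car12 and 1.16 for Car14.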

How the results depend on the processing

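Over all alternatives and members, 510 of 530 values kept their direction and their side of the threshold, 16 lost a call, 1 gained a call (Car9 in mouse without untreated replicate 2) and 3 changed sign without being called: Car9 in mouse under upper-quartile scaling (-0.049) and when only library size was used (-0.077), and Car13 in spiny mouse without untreated replicate 2 (-0.045; from -0.045 to 0.15 over single samples left out). Of 827 values of named list genes, 792 kept both. Pdk1 changed sign in the species difference under upper-quartile scaling (0.0015) and when only library size was used (0.057), and Adm without treated spiny mouse replicate 4 (-0.27, the lowest, with 0.75 the highest over single samples left out). Neither difference was called. Leaving out single samples gave 6 to 8 called members in mouse, 6 to 8 in spiny mouse and 8 in the difference. Over single samples left out, called hypoxia targets ran from 6 to 10 in mouse (6 without treated replicate 2) and from 7 to 11 in spiny mouse (7 without untreated replicate 4). In the difference they ran from 3 to 6 (3 without treated mouse replicate 2), where the main count was 5. That count was 3 with no low-count filter or with the DESeq2 test, and 7 under upper-quartile scaling or when only library size was used. The difference called 1 of the other carbonic anhydrases, 2 without the filter, and 0 under upper-quartile scaling or when only library size was used. Relative to TMM, the mouse median shifted by 0.096 (DESeq2 size factors), -0.20 (upper quartile) and -0.24 (library size) on the log2 scale. The median difference shifted by -0.10, 0.16 and 0.22 in that order. With no filter these medians lay -0.31 and -0.10 from the main ones, but over other sets of 38169 genes and 16499 symbols. They are therefore no shift of the same genes. In mouse without the filter Car2 was 3.92 against 3.77, and Car3 was -2.15 against -2.30. Ranked by CPM instead of TPM, 6 of 10 members kept their place in untreated mouse skin and 6 of 10 in untreated spiny mouse skin. Without untreated replicate 2, an alternative chosen after seeing the data, 6 of 10 kept their TPM place in untreated mouse skin.

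Replicate numbers recur in every group but were not taken as pairs: deviations of same-numbered samples correlated at 0.0094 on average in mouse and at -0.36 in spiny mouse. With the replicate block 6, 8 and 7 members were called in mouse, spiny mouse and the difference. Car8 in mouse (-1.41) and Car5b in the difference (0.89) lost their calls. Over all genes the block called 11246, 7418 and 5723. Low counts limit Car4, Car8, Car9 and Car14, whose group means in mouse lay under 7 CPM.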
